A study of Mus musculus with 6 samples.

Results

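The enzymes described here make serine, one-carbon units, proline and asparagine from glucose- and glutamine-derived carbon. They are 10 genes, taken as a fixed set by name and found in the deposited tables by Ensembl gene ID with their position checked, of 11835 genes with a level in the series. All 10 had a level in at least 1 library. They were measured by RNA sequencing in DN3 thymocytes, early T cell precursors of the mouse thymus that were sorted as negative for lineage markers, CD4, CD8 and CD44 and positive for CD25. The groups were 3 libraries from Hspa9 cKO mice and 3 from WT mice, all 5 weeks old and untreated. The comparison addresses the role of GRP75, or mortalin, in thymocytes at this stage. GRP75 is the product of Hspa9, an HSP70 family chaperone that works in the mitochondrial matrix. The Cre driver, the strain, and whether a library held cells of 1 animal or of a pool are not stated in the labels. The p-values therefore reflect variation among these libraries alone, some or all of which may be technical.

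Serine is built from a glycolytic intermediate by Phgdh, Psat1 and Psph acting in turn. Shmt2 then moves a carbon of serine onto folate inside the mitochondrion, and Mthfd2, Mthfd1l and Aldh1l2 convert that carbon to formate or carbon dioxide, which leaves the folate free and supplies formate for purine and thymidylate synthesis in the cytosol. Aldh18a1 and Pycr1 make proline from glutamate in mitochondria, and Asns makes asparagine from aspartate and glutamine. In mammalian cells under amino acid shortage or mitochondrial stress, many of these genes are known targets of the transcription factor ATF4, and proliferating T cells are known to depend on serine and one-carbon supply.

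Of the enzymes, 4 were higher in Hspa9 cKO cells, and they came from different branches: asparagine synthesis (Asns), proline synthesis (Aldh18a1 and Pycr1) and the mitochondrial folate pathway (Mthfd2). The serine synthesis enzymes Phgdh, Psat1 and Psph, and the folate enzymes Shmt2 and Mthfd1l, did not pass the test in either direction. Levels are in FPKM, fragment density corrected for transcript length and for library size, summed over the transcript starts listed for a gene. Of the 10 genes, 9 reached 1 FPKM in at least 3 libraries and were tested together with all other such genes on log2(FPKM + 1), and limma called a gene where its Benjamini-Hochberg adjusted p was under 0.05. Among the 9, 4 were called higher and 0 lower, while 8.34% of the 8926 genes tested were called higher and 5.8% lower. At an unadjusted p under 0.05 (limma), 4 enzymes were higher and 1, Mthfd1l, was lower. The share of all genes at that threshold was not computed, so these counts are a description only. The libraries of the groups did not overlap for 4 enzymes higher and 2 lower in Hspa9 cKO, while this held for 23.2% and 15.9% of all genes tested. The median log2 change was 0.23 over the 9 and 0.06 over all genes tested. Pycr1 and Asns passed the filter on low values through the Hspa9 cKO libraries, since 1 WT library reached 1 FPKM for Pycr1 and 2 for Asns, so the count of 4 of 9 is a description only. Because bulk RNA was measured, fewer cells of a type and less RNA per cell cannot be told apart.

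The check of the targeted gene lies in its transcript structure. Summed over starts, Hspa9 stood at 117.2, 123.5 and 109.7 FPKM in Hspa9 cKO and at 105.4, 121.2 and 121.7 FPKM in WT. Transcripts that include exons 2 to 4 made up 21.3%, 13.6% and 22.9% of those spanning the region in Hspa9 cKO and 100%, 89.9% and 86.1% in WT (exact two-sided permutation test, p = 0.1, the smallest that 3 against 3 libraries allow). With no counts in the tables, sequencing depth is unknown. Across all genes tested, 744 were called higher and 518 lower, and 575 and 698 after the libraries were rescaled by trimmed means. All 10 DN3 markers looked for had a level, their sum lay between 2530 and 2880 FPKM in Hspa9 cKO and between 1740 and 2320 FPKM in WT, and 6 were called higher. Markers of CD4 or CD8 thymocytes, 4 of 4 with a level, summed to 11.1 to 12.9 FPKM in Hspa9 cKO and 17.9 to 20.3 FPKM in WT, with 2 of 3 tested called lower. Erythroid markers, 3 of 5 with a level, summed to 22.0 to 25.5 FPKM in Hspa9 cKO and 37.2 to 44.9 FPKM in WT, with both that were tested called lower. Of the natural killer list 2 of 5 had a level, 58.2 to 62.0 FPKM in Hspa9 cKO and 30.2 to 33.2 FPKM in WT, almost all from Nkg7. Of the stromal list 3 of 6 had one, 62.5 to 69.6 FPKM in Hspa9 cKO and 48.0 to 51.9 FPKM in WT, from Epcam and Pecam1. The B cell list had only Cd79b, at 15.3 to 18.3 FPKM in Hspa9 cKO and 9.75 to 12.6 FPKM in WT, and Pax5, Ncr1, Klrd1 and Foxn1 had no value in the tables. The myeloid, dendritic, gamma-delta and earlier progenitor lists had no member called, while Nkg7, Epcam and Cd79b were each called higher. The part of these differences in the enzyme results was not tested.

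**Figure D1:**
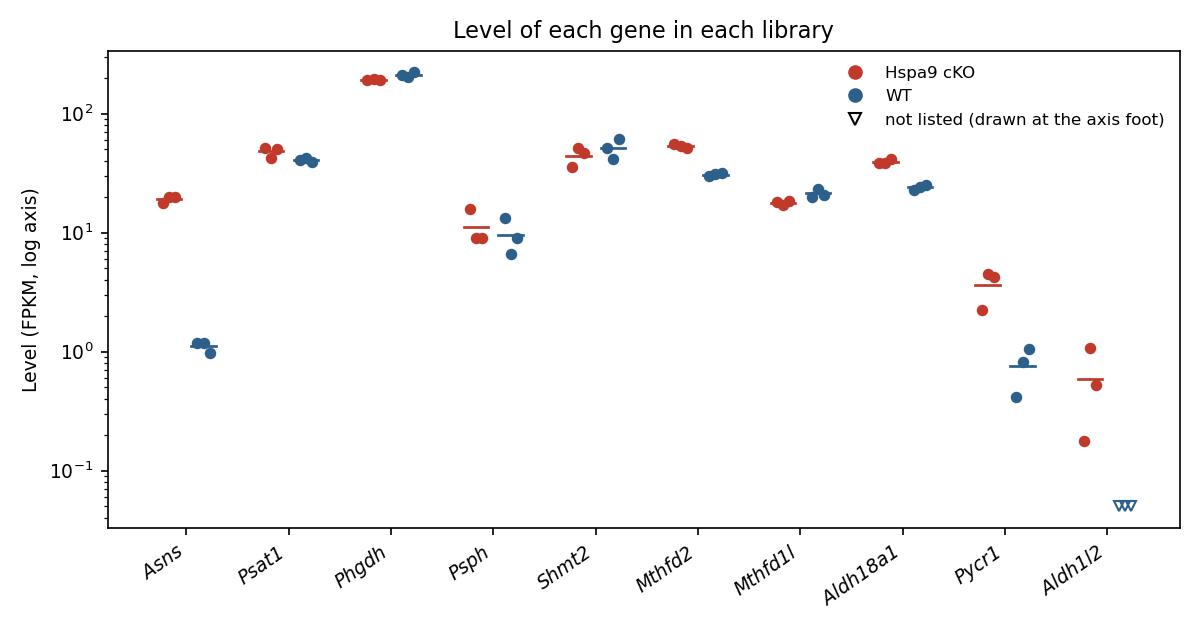
Level of each of the 10 enzymes in every library, in FPKM on a log axis; points are libraries, lines are group means, and open triangles mark WT libraries in which Aldh1l2 was not listed. Asns, Mthfd2, Aldh18a1 and Pycr1 have all 3 Hspa9 cKO libraries above all 3 WT libraries, and Phgdh and Mthfd1l have them below.

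Levels differed widely among the enzymes, and FPKM is already per transcript length. In Hspa9 cKO the mean levels ran from Phgdh at 192.0 FPKM through Mthfd2 (53.5), Psat1 (48.3), Shmt2 (44.4), Aldh18a1 (39.4), Asns (19.3), Mthfd1l (17.9), Psph (11.3) and Pycr1 (3.64) to Aldh1l2 at the foot. In WT the order of mean levels was Phgdh at 212.1 FPKM, then Shmt2 (51.5), Psat1 (40.9), Mthfd2 (30.8), Aldh18a1 (24.1), Mthfd1l (21.4), Psph (9.61), Asns (1.11) and Pycr1 (0.758), with Aldh1l2 not listed. Neighbours in the Hspa9 cKO order whose libraries overlapped were Psat1 and Shmt2, Shmt2 and Aldh18a1, and Asns and Mthfd1l. In the WT order they were Shmt2 and Psat1, Aldh18a1 and Mthfd1l, and Asns and Pycr1.

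Serine synthesis was measured first at Phgdh, phosphoglycerate dehydrogenase, which commits glycolytic carbon to serine. Phgdh (ENSMUSG00000053398; mm10 chromosome 3, 98313170 to 98339990, minus strand) measured 190.1, 194.7 and 191.1 FPKM in Hspa9 cKO and 212.6, 201.7 and 222.1 FPKM in WT. The 3 Hspa9 cKO libraries lay below the 3 WT libraries, as they did for 15.9% of all genes tested. The log2 change was -0.14 ± 0.06 (SE), with a 95% interval of -0.29 to 0.01 (limma, adjusted p = 0.175). Counted over transcript ends instead, Phgdh stood at 190.0, 194.6 and 191.1 FPKM in Hspa9 cKO and at 172.4, 201.7 and 222.1 FPKM in WT, so the groups overlapped. In WT replicate 1 another form of an inner exon, longer by a shifted edge, was listed at 40.2 FPKM, and no other library listed it.

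Psat1, phosphoserine aminotransferase, carries out the second step. Psat1 (ENSMUSG00000024640; chromosome 19, 15904678 to 15947337, minus strand) measured 51.4, 42.5 and 50.9 FPKM in Hspa9 cKO and 40.8, 42.7 and 39.1 FPKM in WT. Replicate 2 of Hspa9 cKO lay within the WT range and the other two lay above it. The log2 change was 0.23 ± 0.10 (SE), with a 95% interval of -0.0029 to 0.46 (limma, adjusted p = 0.164). Relative to Phgdh, the FPKM ratio of Psat1 was 0.270, 0.218 and 0.266 in Hspa9 cKO and 0.192, 0.212 and 0.176 in WT, without overlap between the groups. Over transcript ends the groups overlapped. There, Psat1 and Phgdh stood at 41.4 and 172.4 FPKM in WT replicate 1, the larger ratio, and at 42.9 and 194.6 FPKM in Hspa9 cKO replicate 2. The ratio was chosen after the values were seen and was not tested.

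Psph, phosphoserine phosphatase, completes serine. Psph (ENSMUSG00000029446; chromosome 5, 129765558 to 129787449, minus strand) measured 15.8, 8.96 and 9.03 FPKM in Hspa9 cKO and 13.2, 6.66 and 8.97 FPKM in WT. The groups overlapped, and the spread within each was wide. The log2 change was 0.21 ± 0.30 (SE), with a 95% interval of -0.52 to 0.94 (limma, adjusted p = 0.676), and it became -0.04 without Hspa9 cKO replicate 1 and -0.0022 without WT replicate 2. Which start carried the gene differed among libraries of the same group. The start of the principal isoform was at 1.68, 8.96 and 1.36 FPKM in Hspa9 cKO and at 1.85, 6.66 and 1.05 FPKM in WT, and a start in a later exon, not listed in replicate 2 of either group, was at 14.1 and 7.67 FPKM in the remaining Hspa9 cKO libraries and at 11.4 and 7.91 FPKM in the remaining WT libraries. The first exon of Psph, 129786955 to 129787449, overlaps that of Cct6a on the other strand (129786996 to 129787575), listed at 106.5, 50.3 and 96.1 FPKM in Hspa9 cKO and at 78.3, 78.0 and 134.9 FPKM in WT, and without a stated use of strand the reads of both cannot be told apart there.

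**Figure D2:**
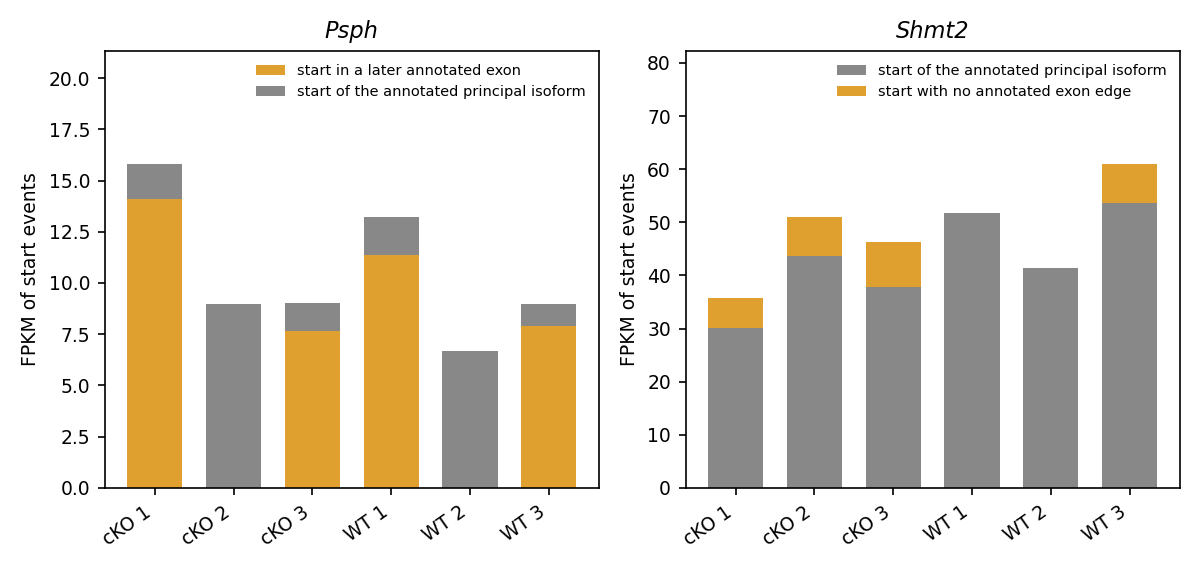
FPKM of the start events of Psph and Shmt2 in each library, stacked by the exon in which the transcripts begin; minor start events are left out. Hspa9 cKO replicate 2 and WT replicate 2 list only the principal start of Psph. The Shmt2 start event with no annotated terminal exon edge, whose exon also covers the first intron, is listed in all 3 Hspa9 cKO libraries and in WT replicate 3.

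Shmt2, the mitochondrial serine hydroxymethyltransferase, opens the one-carbon pathway. Shmt2 (ENSMUSG00000025403; chromosome 10, 127517123 to 127522444, minus strand) measured 35.9, 51.1 and 46.3 FPKM in Hspa9 cKO and 51.9, 41.5 and 61.1 FPKM in WT. The groups overlapped. Its log2 change was -0.21 ± 0.18 (SE), with a 95% interval of -0.66 to 0.24 (limma, adjusted p = 0.495). It depended on single libraries, at -0.06 without Hspa9 cKO replicate 1, -0.31 without Hspa9 cKO replicate 2, -0.35 without WT replicate 2 and -0.08 without WT replicate 3. Part of the level came from a start event whose inner edge matches no annotated terminal exon, at 5.82, 7.46 and 8.35 FPKM in Hspa9 cKO and at 7.32 FPKM in WT replicate 3, and not listed in WT replicates 1 and 2. Its exon ran from 127520918 to 127522444, the annotated outer end of the gene. The edge at 127520918 is also the downstream edge of the second exon (127520918 to 127521115). The exon of this event thus covers the first exon, the first intron and the second exon. The event is therefore not shown to be a separate start site. The principal start alone was at 30.02, 43.6 and 37.9 FPKM in Hspa9 cKO and at 51.8, 41.5 and 53.6 FPKM in WT, which also overlap.

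Mthfd2, the mitochondrial methylenetetrahydrofolate dehydrogenase and cyclohydrolase, was higher in Hspa9 cKO. Mthfd2 (ENSMUSG00000005667; chromosome 6, 83305691 to 83325908, minus strand) measured 55.2, 53.7 and 51.6 FPKM in Hspa9 cKO and 29.7, 31.2 and 31.5 FPKM in WT. The groups lay far apart compared with the spread within either, and the means were 53.5 ± 1.80 FPKM in Hspa9 cKO and 30.8 ± 0.948 FPKM in WT (SD, n = 3 each), a ratio of 1.74. The log2 change was 0.78 ± 0.07 (SE, limma adjusted p = 0.00245), and the call held without any 1 of the 6 libraries (adjusted p between 0.0104 and 0.0194). Nearly all of the signal came from 1 start, that of the principal isoform. Another start exon, at the annotated outer end of the gene, was at most 0.214 FPKM. The facing edges of these exons lie 8109 bases apart. Relative to Shmt2, the enzyme before it, Mthfd2 had an FPKM ratio of 1.53, 1.05 and 1.11 in Hspa9 cKO and of 0.573, 0.753 and 0.515 in WT. This ratio, too, was chosen after the values were seen and was not tested.

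Mthfd1l, the mitochondrial formyltetrahydrofolate synthetase that releases formate in the same compartment, did not pass the test. Mthfd1l (ENSMUSG00000040675; chromosome 10, 3973118 to 4167081, plus strand) measured 18.2, 17.01 and 18.4 FPKM in Hspa9 cKO and 20.1, 23.4 and 20.8 FPKM in WT. The Hspa9 cKO libraries lay below the WT libraries, but the log2 change of -0.24 ± 0.09 (SE), with a 95% interval of -0.45 to -0.04, was not called (limma, adjusted p = 0.114). The gene had 1 listed start and 3 listed ends, and the pair of ends that carried its level lay in the same last exon with different inner edges. The first of these was at 11.9, 9.69 and 12.6 FPKM in Hspa9 cKO and at 11.1, 13.9 and 13.7 FPKM in WT, and the second at 6.36, 7.31 and 7.01 FPKM in Hspa9 cKO and at 8.996, 9.41 and 7.14 FPKM in WT.

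Aldh1l2, the mitochondrial formyltetrahydrofolate dehydrogenase, was too low to test. Aldh1l2 (ENSMUSG00000020256; chromosome 10, 83487450 to 83534140, minus strand) had 0.179, 1.08 and 0.519 FPKM in Hspa9 cKO and was not listed in the 3 WT libraries. An unlisted event can be a failed estimate, so no fold change is given. The gene overlaps D10Wsu102e on the other strand, away from its start exon.

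Transcripts of both proline synthesis enzymes of the set, Aldh18a1 and Pycr1, were higher in Hspa9 cKO. Pycrl, a more abundant relative of Pycr1, was not called (limma, log2 change -0.19, adjusted p = 0.165). Aldh18a1, the pyrroline-5-carboxylate synthase that reduces glutamate (ENSMUSG00000025007; chromosome 19, 40550257 to 40588463, minus strand), measured 38.2, 38.6 and 41.4 FPKM in Hspa9 cKO and 23.0, 24.4 and 25.03 FPKM in WT. Every Hspa9 cKO library lay above every WT library, and the means were 39.4 ± 1.73 FPKM in Hspa9 cKO and 24.1 ± 1.06 FPKM in WT (SD, n = 3 each), a ratio of 1.63. The log2 change was 0.69 ± 0.07 (SE, limma adjusted p = 0.0046), and the call held without any 1 library (adjusted p between 0.0152 and 0.0281). A single start carried the gene in all 6 libraries, and nearly all of its transcripts kept the second exon.

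Pycr1, a mitochondrial pyrroline-5-carboxylate reductase that completes proline, was much scarcer. Pycr1 (ENSMUSG00000025140; chromosome 11, 120635712 to 120643769, minus strand) measured 2.24, 4.47 and 4.22 FPKM in Hspa9 cKO and 0.414, 0.812 and 1.05 FPKM in WT. The lowest Hspa9 cKO library was still above the highest WT library. The means were 3.64 ± 1.22 FPKM in Hspa9 cKO and 0.758 ± 0.320 FPKM in WT (SD, n = 3 each), a ratio of 4.81. The log2 change was 1.38 ± 0.26 (SE, limma adjusted p = 0.0217). The call was lost without Hspa9 cKO replicate 2 or 3 or WT replicate 1 or 2 (log2 change between 1.23 and 1.41, adjusted p between 0.0558 and 0.0791). With a pseudocount of 0.1 FPKM the log2 change was 2.14.

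Asns, asparagine synthetase, had the largest change of the 9 enzymes tested. Asns (ENSMUSG00000029752; chromosome 6, 7675169 to 7693254, minus strand) measured 17.8, 20.0 and 20.1 FPKM in Hspa9 cKO and 1.19, 1.18 and 0.973 FPKM in WT. The groups were far apart, with means of 19.3 ± 1.29 FPKM in Hspa9 cKO and 1.11 ± 0.122 FPKM in WT (SD, n = 3 each), a ratio of 17.3. The log2 change of 3.26 ± 0.10 (SE, limma adjusted p = 0.000193) ranked 7 among the 8926 genes tested, while Pycr1 ranked 105, Mthfd2 454 and Aldh18a1 610. The call held without any 1 library (adjusted p between 0.00169 and 0.00546), and transcript ends gave 16.0, 20.8 and 20.9 FPKM in Hspa9 cKO and 1.19, 1.29 and 0.995 FPKM in WT. Almost all transcripts began at the principal start and kept the second exon. Its skipping was listed in Hspa9 cKO replicate 1 alone, at 1.79 FPKM beside 15.9 FPKM with the exon.

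**Figure D3:**
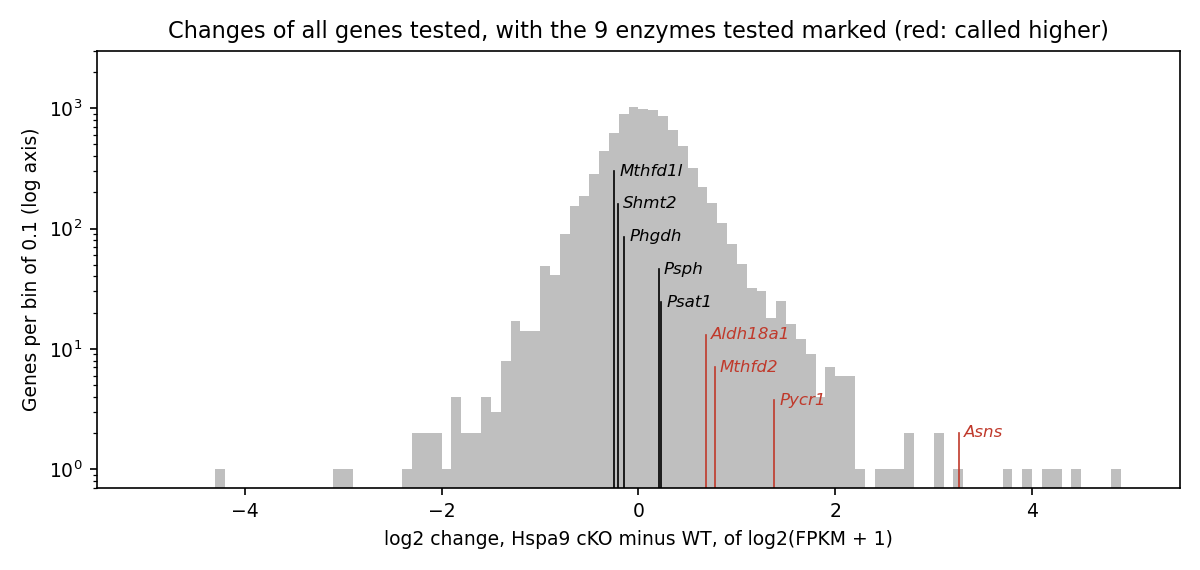
Histogram of the log2 change (Hspa9 cKO minus WT) of all 8926 genes tested, with the count per bin on a log axis; lines mark the 9 enzymes tested, red where called higher. Asns stands in the sparse upper tail at 3.26, Pycr1 at 1.38, Mthfd2 at 0.78 and Aldh18a1 at 0.69, and the other 5 lie between -0.24 and 0.23.

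The promoters of the 4 genes called higher are shown because ATF4, paired with C/EBP proteins, is known to bind a composite element with the core TGATGNAA. Each line gives the 250 bases upstream of the RefSeq start (GRCm38.p6, the assembly of mm10), 5′ to 3′ on the gene's strand, with a match to this core in capitals.
Asns, chr6:7693210-7693459, minus strand: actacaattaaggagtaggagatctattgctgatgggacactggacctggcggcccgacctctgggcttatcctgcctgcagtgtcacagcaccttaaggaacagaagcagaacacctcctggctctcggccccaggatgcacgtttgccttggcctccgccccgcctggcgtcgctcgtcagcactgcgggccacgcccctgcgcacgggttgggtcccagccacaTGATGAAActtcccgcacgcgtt
Pycr1, chr11:120643749-120643998, minus strand: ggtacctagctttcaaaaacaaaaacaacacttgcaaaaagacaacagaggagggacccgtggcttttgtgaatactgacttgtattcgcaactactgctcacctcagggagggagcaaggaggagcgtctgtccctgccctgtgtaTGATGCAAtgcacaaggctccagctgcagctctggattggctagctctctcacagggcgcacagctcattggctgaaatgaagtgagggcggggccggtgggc
Mthfd2, chr6:83317605-83317854, minus strand: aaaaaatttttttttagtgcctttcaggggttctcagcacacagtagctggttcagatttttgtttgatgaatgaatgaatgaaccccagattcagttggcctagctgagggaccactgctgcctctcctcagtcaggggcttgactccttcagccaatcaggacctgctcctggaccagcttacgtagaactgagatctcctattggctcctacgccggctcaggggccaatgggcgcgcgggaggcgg
Aldh18a1, chr19:40588464-40588713, minus strand: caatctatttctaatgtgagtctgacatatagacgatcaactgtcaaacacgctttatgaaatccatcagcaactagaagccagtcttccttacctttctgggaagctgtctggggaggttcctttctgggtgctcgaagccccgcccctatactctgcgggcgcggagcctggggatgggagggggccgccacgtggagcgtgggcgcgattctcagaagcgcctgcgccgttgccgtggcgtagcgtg

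The core was searched on both strands (TGATGNAA or TTNCATCA) in windows of 300 bases, the 250 shown plus the 50 after the start. RefSeq windows were found for 9 of the 10 enzymes, 10 windows in all because Psat1 has 2. Asns held TGATGAAA from 23 to 16 bases upstream of the RefSeq start, and Pycr1 held TGATGCAA from 103 to 96 bases upstream, both on the gene's strand. The annotated GENCODE start of Asns, at 7693254, lies upstream of the RefSeq start at 7693209, so the match is inside the GENCODE first exon. These are the pair of enzymes with the largest changes. No match was found in the windows of Mthfd2, Aldh18a1, Phgdh, Psat1, Psph, Shmt2 and Mthfd1l, which says only that these letters are not in those windows. A match was present in 3.97% of all 32851 RefSeq windows, in 2.14% of the 9081 windows of genes tested, in 5.51% of the 780 windows of genes called higher and in 1.41% of the 496 windows of genes called lower. These shares are descriptions, and a match is not evidence of binding.

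Several of the enzymes have paralogs that act in another compartment or tissue, and the comparison asked whether the ratio of the pair differed between the groups. For 7 pairs the log2 ratio of (FPKM + 1) was compared between the groups with an exact two-sided permutation test, in which 3 against 3 libraries cannot give a p under 0.1, and 6 of the pairs are described. Asns, Pycr1 and Mthfd2 were already called higher from the same values, so their ratios largely repeat that result and are not separate support. For Asns against Asnsd1, a gene with an asparagine synthetase domain, the log2 ratio was 0.11, 0.25 and 0.28 in Hspa9 cKO and -2.94, -2.74 and -3.17 in WT, a difference of 3.16 without overlap (exact p = 0.1; 0.14 adjusted over the 7 pairs). Asnsd1 itself stood at 16.5, 16.6 and 16.4 FPKM in Hspa9 cKO and at 15.8, 13.6 and 16.8 FPKM in WT.

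The ratio of Pycr1 to its relative Pycrl was compared in the same way. Pycrl, the cytosolic form, stood at 28.5, 25.6 and 29.1 FPKM in Hspa9 cKO and at 32.1, 30.4 and 32.8 FPKM in WT. The log2 ratio of Pycr1 to Pycrl was higher by 1.57 in Hspa9 cKO, without overlap (exact p = 0.1; adjusted p = 0.14). Pycrl was more abundant than Pycr1 in every library of either group.

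For the folate enzymes 4 pairs were compared. The log2 ratio of Mthfd2 to its relative Mthfd2l was higher by 1.04 in Hspa9 cKO, without overlap (exact p = 0.1; adjusted p = 0.14), and Mthfd2l stood at 2.62, 2.22 and 0.923 FPKM in Hspa9 cKO and at 1.60, 4.11 and 1.897 FPKM in WT. For Shmt2 and its cytosolic form Shmt1 the difference was 0.42 with overlap (exact p = 0.4, adjusted p = 0.467). It was 0.76 without Hspa9 cKO replicate 1 and 0.19 without Hspa9 cKO replicate 2. With Shmt1 taken from transcript ends it was 0.14, but Shmt2 has no listed end and stayed on its starts, so that value mixes both measures. Shmt1 stood at 17.7, 11.01 and 12.001 FPKM in Hspa9 cKO and at 19.4, 16.7 and 28.9 FPKM in WT, a log2 change of -0.63 ± 0.25 (SE) that was not called (limma, adjusted p = 0.152). For Mthfd1l and its cytosolic form Mthfd1 the difference was -0.08 with overlap (exact p = 0.6; adjusted p = 0.6). Aldh1l2 against Aldh1l1 gave 0.98 without overlap (exact p = 0.1; adjusted p = 0.14), but the size moved with the pseudocount and was 3.78 with 0.1 FPKM. It was 0.44 from transcript ends and 0.61 without Hspa9 cKO replicate 2 (exact p = 0.2 for both). Both genes were near or at 0, with Aldh1l1 at 0.165, 0 and 0.624 FPKM in Hspa9 cKO and at 0.220, 0.695 and 0.871 FPKM in WT.

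**Figure D4:**
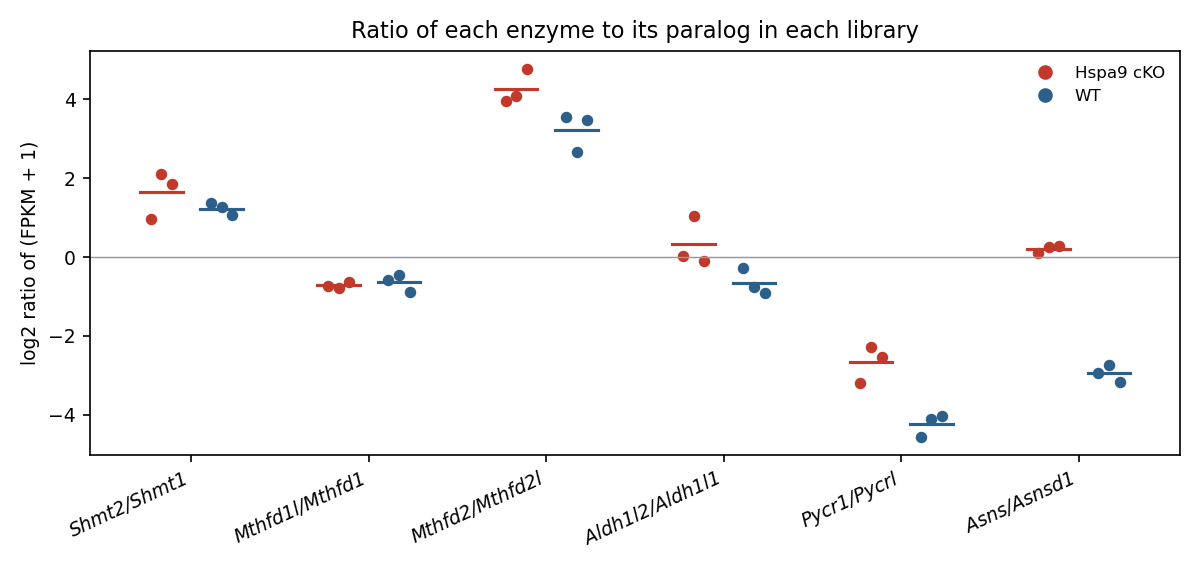
Log2 ratio of (FPKM + 1) of each enzyme to its paralog in every library; points are libraries and lines group means. The Hspa9 cKO points lie above all WT points for 4 of the 6 pairs shown, with the widest gap for Asns to Asnsd1, and overlap them for Shmt2 to Shmt1 and Mthfd1l to Mthfd1.

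Genes next to these enzymes in metabolism moved in both directions. Of 65 genes in 4 lists 45 were tested, 5 were called higher and 7 lower, shares of 11.1% and 15.6%, beside 8.34% and 5.8% of all genes tested. In serine and glycine metabolism, 2 of 8 tested were higher and 2 lower. Sptlc1, a subunit of the serine palmitoyltransferase that uses serine for sphingolipids, stood at 13.4, 13.0 and 11.1 FPKM in Hspa9 cKO and at 8.80, 7.84 and 9.20 FPKM in WT (limma, log2 change 0.49, adjusted p = 0.0341). Of the sideroflexins, which carry serine into mitochondria, Sfxn3 had a log2 change of 0.34 and Sfxn1 of -0.41 (limma, adjusted p = 0.035 and 0.0275). Gcsh, the lipoyl carrier of the mitochondrial glycine cleavage system, stood at 22.9, 23.7 and 24.1 FPKM in Hspa9 cKO and at 37.5, 31.4 and 33.4 FPKM in WT (limma, log2 change -0.51, adjusted p = 0.0164). Leaving out single libraries ended the calls of Sptlc1 and Sfxn3 (any library), of Sfxn1 (any but WT replicate 1) and of Gcsh (any Hspa9 cKO library), and rescaling ended those of Sptlc1 and Sfxn3. Cth, which makes cysteine from cystathionine, was not tested: it was listed at 0.660, 0.984 and 0.705 FPKM in Hspa9 cKO and in no WT library, and it is named here for its values after they were seen.

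In the folate and methionine cycles, 2 of 19 tested were higher and 2 lower. Mat2a, which makes S-adenosylmethionine, stood at 44.7, 38.3 and 41.9 FPKM in Hspa9 cKO and at 26.9, 28.1 and 24.4 FPKM in WT (limma, log2 change 0.63, adjusted p = 0.0104). Ahcy, which clears S-adenosylhomocysteine, was lower, at 38.8, 43.6 and 42.9 FPKM in Hspa9 cKO and 65.4, 64.6 and 70.0 FPKM in WT (limma, log2 change -0.66, adjusted p = 0.00604). The calls of Mat2a and Ahcy held without any 1 library (limma, adjusted p between 0.0257 and 0.0484 for Mat2a and between 0.0202 and 0.0308 for Ahcy). With the replicate number as a block, the call of Mat2a ended and that of Ahcy held.

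In proline, glutamate and ornithine metabolism 1 of 10 tested was higher and 2 were lower. Gpt2, the mitochondrial alanine aminotransferase, stood at 4.99, 5.83 and 5.15 FPKM in Hspa9 cKO and at 0.804, 0.819 and 0.0801 FPKM in WT (limma, log2 change 2.05, standard error 0.23, adjusted p = 0.00575), and it passed the filter on low values through the Hspa9 cKO libraries. The mitochondrial aspartate aminotransferase Got2 was lower by a log2 change of -0.39 (limma, adjusted p = 0.0142), as was the ornithine aminotransferase Oat with -0.30 (limma, adjusted p = 0.049). Omission of any single library ended the call of Oat, and omission of WT replicate 1 or of an Hspa9 cKO library ended that of Got2. In asparagine and aspartate metabolism, apart from Asns, 1 of 8 tested was called. Cad, which uses aspartate to begin pyrimidine synthesis, stood at 20.0, 19.7 and 22.3 FPKM in Hspa9 cKO and at 30.6, 38.9 and 28.7 FPKM in WT (limma, log2 change -0.63, adjusted p = 0.0292). Its call ended under the same omissions as that of Got2.

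Regulators of the amino acid response, a list of 11 that includes the factors known to act on these enzymes in mammalian cells, had 8 genes tested, 4 called higher and 0 lower, beside 8.34% and 5.8% of all genes tested. Trib3, a pseudokinase induced by ATF4, stood at 23.1, 25.5 and 12.9 FPKM in Hspa9 cKO, against 0.0053, 0 and 0.298 FPKM in WT (limma, log2 change 4.24, adjusted p = 0.00109). Atf5, a relative of ATF4, stood at 46.1, 53.1 and 49.8 FPKM in Hspa9 cKO and at 4.81, 5.39 and 5.48 FPKM in WT (limma, log2 change 3.02, adjusted p = 0.000193). Nupr1, a stress-induced chromatin protein, was at 3.30, 3.31 and 3.42 FPKM in Hspa9 cKO and was not listed in WT, its level being taken from transcript ends. These 3 genes had Hspa9 cKO libraries above every WT library, and Trib3 and Nupr1 passed the filter on low values through them. Atf4 itself stood at 56.5, 56.9 and 54.6 FPKM in Hspa9 cKO and at 133.5, 60.0 and 60.9 FPKM in WT, where replicate 1 stood apart. All 3 Hspa9 cKO libraries lay below all 3 WT libraries, as they did for 15.9% of all genes tested. The Atf4 transcript had a log2 change of -0.49 ± 0.31 (SE) and was not called (limma, adjusted p = 0.34), and ATF4 protein was not measured.

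**Figure D5:**
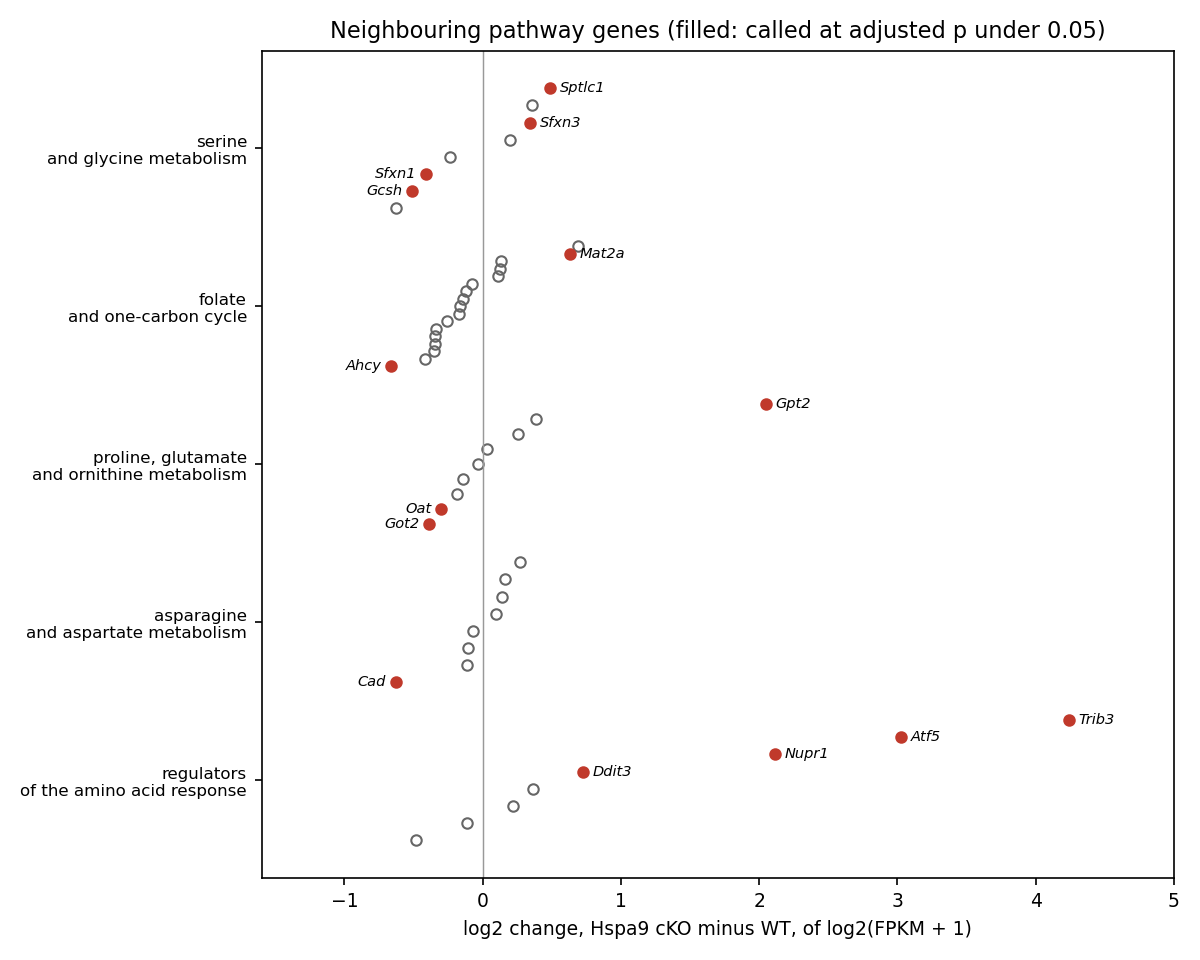
Log2 change (Hspa9 cKO minus WT) of tested genes in 5 lists of neighbouring genes, each point a gene, filled where called. Of the metabolic genes shown, Gpt2 alone lies above 1, and called genes lie on both sides of 0.

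The genes whose 6-library profiles were nearest to the mean profile of the 9 enzymes tested, by Euclidean distance of log2(FPKM + 1) after subtraction of the WT mean, were Clic4 (0.0677), Ngrn (0.0835), Slc39a11 (0.108), C1qtnf12 (0.115) and Disp1 (0.126). That mean profile had a log2 change of 0.66, and those of these 5 genes lay between 0.62 and 0.67. Asns (3.26) and Pycr1 (1.38) raised the mean, while the median over the 9 enzymes was 0.23. The 5 enzymes not called lay between -0.24 and 0.23, so the nearest genes resemble an average and not most of the enzymes.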

How the data were processed

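RNA of 3 Hspa9 cKO and 3 WT libraries of sorted DN3 thymocytes was sequenced, and the deposited tables list FPKM that the authors assigned to transcript-structure events (starts, ends and inner exons), 1 table per library. Per the submitters' processing notes, cutadapt 1.9.1 and the build mm10 were used. The aligner, the event caller, the annotation and the use of strand were not given in the sources used here. The tables hold no counts, and their low values are not multiples of a read, so depth is unknown and no counting interval is given.

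Gene levels were FPKM summed over distinct start events, or over end events where a gene had none (523 of 11835 genes), taken by Ensembl ID and checked against positions in GENCODE M21. Genes with at least 1 FPKM in at least 3 libraries were compared on log2(FPKM + 1) with limma 3.58.1 in R 4.3.3 (trended, robust variances), with Benjamini-Hochberg adjustment over all of them and a threshold of 0.05. The pseudocount understates the change of low genes. Single values were compared with exact permutation tests in Python 3.11.15. On simulated data with 200 changed genes of 8926, the comparison of Hspa9 cKO with WT recovered 19.4% of changes of 0.5 on the log2 scale, 58.2% of changes of 1 and 92.4% of changes of 2, with 5 false calls of 118. In the data 1262 genes (14.1%) were called, more than were changed in the simulation. The adjustment depends on that share, so these recoveries need not hold for the data.

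The 10 enzymes and all gene lists were chosen with earlier results of these data known. All 10 enzymes, their paralogs and Hspa9 are named, and from each other list at most the 3 called genes with the largest change in each direction, plus the 5 genes nearest in profile. A few genes that this rule would name are not reported here, though they remain in the counts, and are left out of the figures. Alternatives covered the pseudocount, the filter, rescaling of libraries, transcript ends, assignment by annotated exon edge, the variance model, a replicate block and omission of each library. Same-numbered libraries deviated with correlations of 0.0192, -0.0288 and -0.0279, which does not show that the numbers pair the samples. A correlation over all genes cannot exclude a pairing that touches few genes.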

Additional observations from a re-analysis of the deposited data

How the results depend on the processing

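The 4 enzymes called higher kept that call under every alternative that leaves all 6 libraries in and tests them. Pycr1 was not tested at a filter of 5 FPKM. It has no listed end, so the alternative with transcript ends reused its starts. Assignment by annotated exon edge gave all 4 the same log2 changes as the main setting. Neither is therefore a separate check of the calls it left unchanged in level. Leaving out 1 library ended the call of Pycr1 in 4 of 6 cases (log2 change 1.24, 1.28, 1.23 and 1.41 without Hspa9 cKO replicate 2, Hspa9 cKO replicate 3, WT replicate 1 and WT replicate 2), and its log2 change ranged from 1.23 to 1.62. The log2 change of Psph ranged from -0.0405 to 0.443, with -0.0405 without Hspa9 cKO replicate 1 and -0.00217 without WT replicate 2. The difference in the Mthfd1l to Mthfd1 ratio ranged from -0.2 to 0.0136, the last without WT replicate 2. For each of these the cause was not tested. Over all genes, omission of 1 library gave 215 to 493 genes called higher and 193 to 328 called lower, and among the other pathway genes 3 to 7 higher and 1 to 5 lower; fewer samples enter each such fit. With the replicate number as a block, 143 genes were called higher and 78 lower, and 4 and 1 of the other pathway genes; the 4 enzymes were still called (limma, adjusted p between 0.0274 and 0.0424). The block uses residual degrees of freedom, and the numbers were not shown to pair the samples. Rescaling by median ratios called 590 genes higher and 656 lower. The call of Oat also ended with no filter on low values, with assignment by annotated exon edge and without trended variances. The unknown depth limits Aldh1l2, Pycr1 and Asns, whose WT levels are at or near 1 FPKM or below it.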
